A study of Arabidopsis thaliana with 6 samples.

Results

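The aldehyde dehydrogenase (ALDH) genes described here are ALDH10A8 (AT1G74920), ALDH10A9 (AT3G48170), ALDH6B2 (AT2G14170), ALDH11A3 (AT2G24270), ALDH2C4 (AT3G24503), ALDH22A1 (AT3G66658) and ALDH3F1 (AT4G36250). They were taken by family name, and are the 7 ALDH genes with a named feature among the 7234 measured genes. The Arabidopsis thaliana family was listed with 16 genes, and the other 9 were not analysed here. Each of the 7 genes is represented by 1 feature. No genome build is named for the features, so no coordinates are given.

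The study used 6 two-colour arrays with RNA of whole seedlings aged 60 h. In the first group, 3 arrays carried Col-0 wild type grown under red light that was never switched off (24 μmol m-2 s-1). In the second, 3 arrays carried the dark-grown pifQ mutant (pif3 pif4 pil5 pil6), which lacks a set of phytochrome-interacting bHLH transcription factors. None of the mutated genes has a named feature, so the genotype was not checked by its own transcripts. The control, dark-grown Col-0, was hybridised in the Cy3 channel of every array and the sample in the Cy5 channel, without a dye swap. All seedlings had 3 days at 4 °C, then 6 h of white light, on medium with 1% sucrose, so the dark groups had also seen light before the 60 h. The replicates of a group came from plants grown and harvested separately. Each value is a log ratio, sample over dark Col-0, read here as log2 because no source used here gives the base; every fold size rests on that reading. They give differences between seedlings, not levels, so transcripts of different ALDH genes cannot be ranked by abundance.

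ALDH enzymes oxidise reactive aldehydes to the matching carboxylic acids with NAD or NADP as acceptor. Some members serve a single pathway, such as valine breakdown or the synthesis of hydroxycinnamic acids, and others remove aldehydes that arise when lipids or polyamines are oxidised. A germinating seedling in the dark lives on stored lipid and protein, and light starts its change to photosynthesis; PIF proteins hold back that change in darkness and are degraded after light activates phytochrome.

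In red light, 4 of the 7 ALDH genes fell relative to dark Col-0 and none rose: ALDH10A8, ALDH3F1, ALDH10A9 and ALDH2C4, by limma with Benjamini-Hochberg adjustment over all genes at a threshold of 0.05. The decreases were small, from 1.36-fold to 1.57-fold. Of all genes tested, 37.8% passed, made up of 19.0% lower and 18.8% higher. In limma, 0 ALDH genes passed in dark pifQ against dark Col-0, where 11.6% of all genes did, and 1 had an unadjusted p under 0.05. Likewise 0 passed in red light Col-0 against dark pifQ, where 3.36% of all genes did, and 2 had an unadjusted p under 0.05. In red light against dark Col-0, 6 of the 7 had an unadjusted p under 0.05. The percentages are for adjusted p, and the share of all genes at an unadjusted p under 0.05 is not given here. All comparisons share the dark Col-0 control. Without a dye swap, a dye difference of a gene would enter each ratio over dark Col-0. It could not be told apart from a change between seedlings, and its size was not tested. The 4 calls are all of such ratios, whereas red light Col-0 and dark pifQ were both in Cy5. The median log2 ratio of the 7 genes was -0.45 in red light, against -0.02 over all genes, and -0.13 in pifQ, against -0.04 over all genes. RNA came from whole seedlings, so fewer cells of a type and less transcript per cell cannot be told apart.

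**Figure D1:**
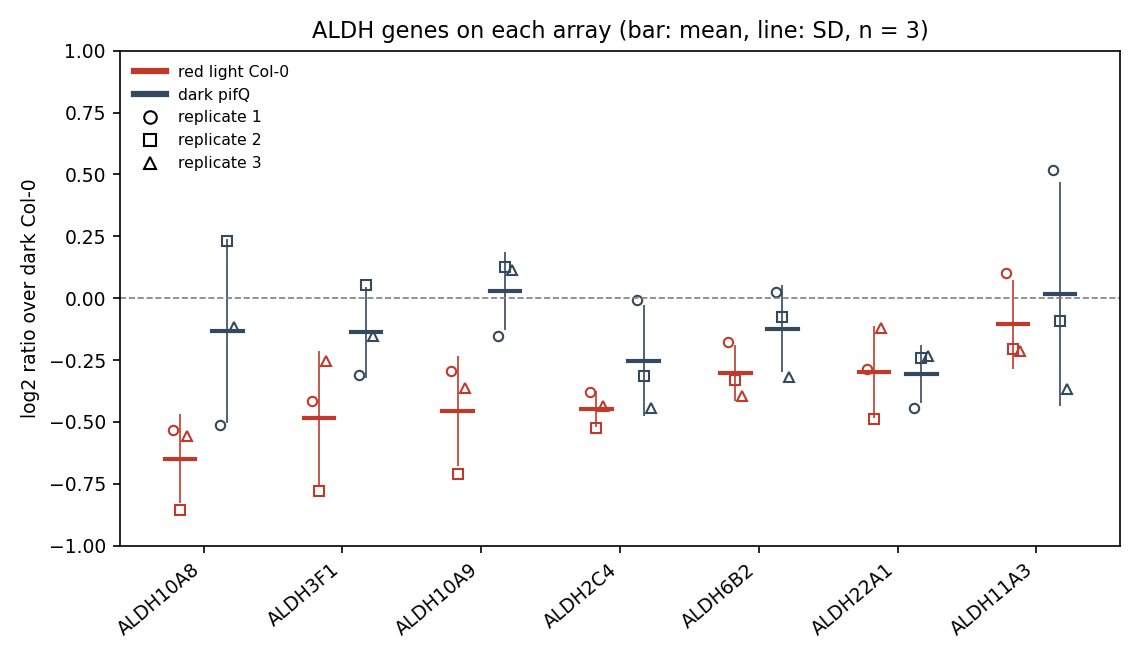
Log2 ratio over dark Col-0 (vertical axis) of the 7 ALDH genes, ordered by their red light mean, with red light Col-0 left of dark pifQ; symbols are arrays, the bar is the mean and the line the SD (n = 3). ALDH10A8 and ALDH10A9 have all red light arrays below all pifQ arrays, and the other 5 genes overlap.

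ALDH10A8 and ALDH10A9 encode the betaine aldehyde dehydrogenases of Arabidopsis, which oxidise aminoaldehydes such as those from polyamine breakdown; the first enzyme is placed in plastids and the second in peroxisomes. ALDH10A8 had log2 ratios of -0.53, -0.86 and -0.56 on red light replicates 1, 2 and 3, against -0.51, 0.23 and -0.12 on pifQ replicates 1, 2 and 3. Every red light array lay below 0, whereas the pifQ arrays fell on both sides of it and ALDH10A8 on pifQ replicate 1 came close to the red light values. The red light mean was -0.65 ± 0.18 (SD, n = 3), a 1.57-fold decrease (adjusted p = 0.0104), and ALDH10A8 ranked 6625 of 7234 genes from the highest red light ratio down. In pifQ the mean was -0.13 ± 0.37 (adjusted p = 0.600).

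ALDH10A9 had log2 ratios of -0.29, -0.71 and -0.36 on red light replicates 1, 2 and 3, against -0.15, 0.13 and 0.12 on pifQ replicates 1, 2 and 3. Again all red light arrays were below 0, and pifQ replicate 1 was the lowest pifQ array. It was 1.37-fold lower in red light (log2 -0.46 ± 0.22, adjusted p = 0.0201), and its pifQ mean was 0.03 ± 0.16 (adjusted p = 0.901). ALDH10A8 was the lower of the pair on all red light arrays: ALDH10A8 minus ALDH10A9 was -0.24, -0.15 and -0.19 on the red light arrays, with a mean of -0.19 ± 0.05. On the pifQ arrays the same difference was -0.36, 0.11 and -0.23, with a mean of -0.16 ± 0.24. The pair encodes similar proteins, and whether a feature of one also binds transcripts of the other was not tested.

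ALDH10A8 and ALDH10A9 were also the members for which all red light arrays lay below all pifQ arrays, 2 of 7, where 10.6% of all genes did so. The log2 difference of red light Col-0 over dark pifQ was -0.52 for ALDH10A8 (SE 0.21, 95% interval -1.004 to -0.03, adjusted p = 0.244) and -0.49 for ALDH10A9 (SE 0.18, 95% interval -0.88 to -0.09, adjusted p = 0.186). These were the 2 members with an unadjusted p under 0.05 in that comparison, and neither passed after adjustment. For the other 5, every interval of the difference included 0.

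ALDH2C4 (REF1) oxidises coniferaldehyde and sinapaldehyde to ferulic and sinapic acid in phenylpropanoid metabolism. Its log2 ratios were -0.38, -0.52 and -0.44 on red light replicates 1, 2 and 3, against -0.01, -0.31 and -0.44 on pifQ replicates 1, 2 and 3. The red light arrays were closer together than for any other member, and all 6 arrays were below 0, pifQ replicate 1 only just. ALDH2C4 was 1.36-fold lower in red light (log2 -0.45 ± 0.07, adjusted p = 0.0176). In pifQ its mean was -0.25 ± 0.22 (95% interval -0.52 to 0.02, adjusted p = 0.198), and pifQ replicate 3 equalled red light replicate 3 to 2 decimals.

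ALDH3F1 belongs to ALDH family 3, whose enzymes act on aliphatic aldehydes. It had log2 ratios of -0.42, -0.78 and -0.25 on red light replicates 1, 2 and 3, against -0.31, 0.05 and -0.15 on pifQ replicates 1, 2 and 3. Among the red light arrays of all members this gene had the widest spread, with replicate 2 far below the other arrays. The mean was 1.40-fold lower in red light (log2 -0.48 ± 0.27, adjusted p = 0.0213) and -0.14 ± 0.18 in pifQ (adjusted p = 0.538).

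ALDH6B2 is the mitochondrial methylmalonate semialdehyde dehydrogenase of valine breakdown. Its log2 ratios were -0.18, -0.33 and -0.40 on red light replicates 1, 2 and 3, against 0.02, -0.08 and -0.32 on pifQ replicates 1, 2 and 3. All red light arrays were below 0 and pifQ replicate 3 lay among them. The red light mean of -0.30 ± 0.11 missed the threshold (95% interval -0.56 to -0.04, adjusted p = 0.0675), and the pifQ mean was -0.12 ± 0.18 (adjusted p = 0.516).

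ALDH22A1 is a single-gene family whose substrate is not described here. Its log2 ratios were -0.28, -0.49 and -0.12 on red light replicates 1, 2 and 3, against -0.44, -0.24 and -0.23 on pifQ replicates 1, 2 and 3. It was the 1 member with every array of both groups clearly below 0, and the groups covered the same range. The means were -0.30 ± 0.19 in red light (adjusted p = 0.0738) and -0.31 ± 0.12 in pifQ (adjusted p = 0.122), each with an unadjusted p under 0.05. Red light Col-0 over dark pifQ gave a log2 difference of 0.01 with a 95% interval of -0.36 to 0.38.

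ALDH11A3 encodes the cytosolic non-phosphorylating glyceraldehyde-3-phosphate dehydrogenase, which makes 3-phosphoglycerate and NADPH. It had log2 ratios of 0.10, -0.21 and -0.21 on red light replicates 1, 2 and 3, against 0.52, -0.09 and -0.37 on pifQ replicates 1, 2 and 3. The arrays of each group fell on both sides of 0, and the pifQ arrays spread more than for any other member. The means were -0.11 ± 0.18 in red light (95% interval -0.49 to 0.28, adjusted p = 0.667) and 0.02 ± 0.45 in pifQ (95% interval -0.36 to 0.40, adjusted p = 0.959).

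**Figure D2:**
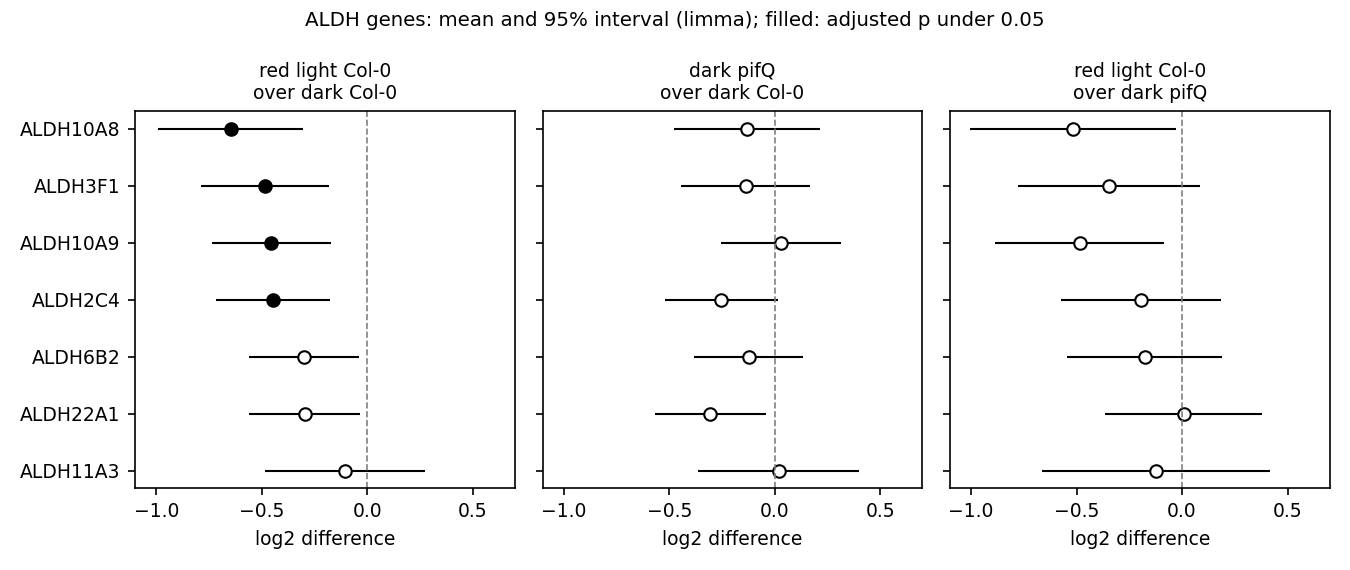
Log2 difference (horizontal axis) with its 95% interval from limma for each ALDH gene in 3 comparisons (red light over dark Col-0, pifQ over dark Col-0, red light Col-0 over pifQ); filled points passed an adjusted p of 0.05. The 4 filled points, at -0.65, -0.48, -0.46 and -0.45, are all in the comparison of red light Col-0 with dark Col-0.

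From the lowest red light mean up, the order was ALDH10A8, ALDH3F1, ALDH10A9, ALDH2C4, ALDH6B2, ALDH22A1 and ALDH11A3. Neighbours in this order differed by less than the larger of their SDs, except ALDH2C4 and ALDH6B2, which were 0.15 apart with a larger SD of 0.11, and ALDH22A1 and ALDH11A3, which were 0.191 apart with a larger SD of 0.186. In pifQ the order from the lowest mean up was ALDH22A1, ALDH2C4, ALDH3F1, ALDH10A8, ALDH6B2, ALDH11A3 and ALDH10A9, and no neighbours differed by more than the larger of their SDs. Among all 7234 genes the ALDH genes sat left of the centre in red light. In pifQ all but ALDH11A3 and ALDH10A9 also sat left of it, as the histogram of means shows.

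**Figure D3:**
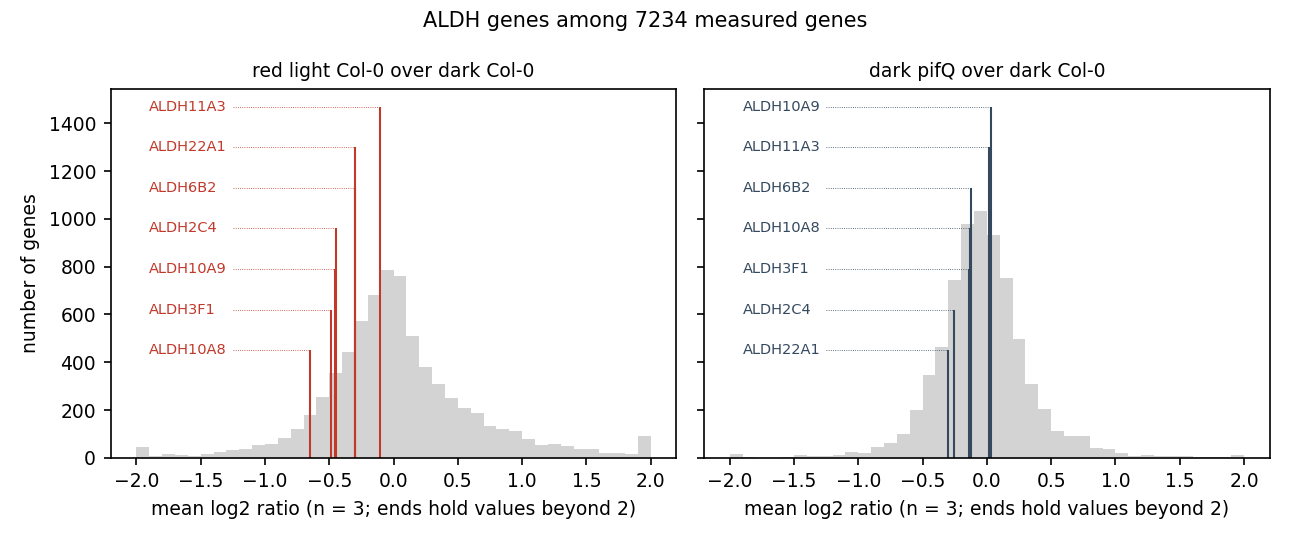
Number of genes (vertical axis) by mean log2 ratio over dark Col-0 (horizontal axis, n = 3 arrays) in red light Col-0 and dark pifQ for all 7234 genes, with a line at each ALDH gene. The ALDH genes range from -0.65 to -0.11 in red light and from -0.31 to 0.03 in pifQ.

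The members varied with the array in ways that split them. On red light replicate 2, 5 of 7 had their lowest red light value, and the median over members was -0.52, against -0.29 on replicate 1 and -0.36 on replicate 3. That array also had the widest spread over all genes, with an SD of 0.75 beside 0.69 and 0.60 on red light replicates 1 and 3. Without red light replicate 2 none of the 7 genes passed in limma (smallest adjusted p = 0.0702, for ALDH10A8), with 3 at an unadjusted p under 0.05. Without red light replicate 1, 1 gene passed, ALDH10A8, and without replicate 3, 2 passed, ALDH10A8 and ALDH3F1. Calls over all 7234 genes fell too, from 2731 with all arrays to 1688 without red light replicate 2. They were 1432 without replicate 1 and 2122 without replicate 3. The means of the 4 ALDH genes stayed below 0 in each case. Without replicate 2 they were -0.54 for ALDH10A8, -0.33 for ALDH10A9, -0.41 for ALDH2C4 and -0.34 for ALDH3F1, nearer to 0 than with all arrays. Without replicate 1 they were -0.71, -0.54, -0.48 and -0.52 in the same order of genes, farther from 0 than with all arrays although 3 of the 4 calls were lost. With arrays scaled to the same spread ALDH2C4 (adjusted p = 0.0516) and ALDH3F1 (adjusted p = 0.0517) missed the threshold.

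On the pifQ arrays, replicate 1 held the lowest pifQ value of ALDH10A8, ALDH10A9, ALDH22A1 and ALDH3F1, 4 of 7, and the highest of ALDH11A3, ALDH2C4 and ALDH6B2, 3 of 7. Replicate 3 held the lowest value of those 3 genes. Over all genes, pifQ replicate 3 correlated less with pifQ replicates 1 and 2 (r = 0.506 and 0.423, across genes, which are not independent replicates) than with red light replicates 1, 2 and 3 (r = 0.695, 0.593 and 0.601). Without pifQ replicate 3, the number of ALDH genes called in red light was 5, with ALDH6B2 added at adjusted p = 0.0490 in limma. The number called in pifQ remained 0. Over all genes, 3001 were then called in red light, beside 2731 with all arrays.

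Over the 6 arrays, the members nearest to each other were ALDH10A9 and ALDH3F1, with a root mean square difference of 0.15 in log2 ratio, followed by ALDH2C4 and ALDH6B2 at 0.16. ALDH10A8 and ALDH11A3 were farthest apart, at 0.60. ALDH10A8 and ALDH10A9 were 0.23 apart, so the pair of the same family lay farther apart than ALDH10A9 and ALDH3F1.

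Among all measured genes, the gene with the most similar ratios over the 6 arrays was picked for each member by the smallest root mean square difference. For ALDH10A8 it was AT4G24880, at 0.097, and for ALDH10A9 it was AT1G54920, at 0.10. ALDH11A3 was closest to CKS (AT1G53000), which activates the sugar Kdo for pectin synthesis, at 0.13. ALDH22A1 was closest to AT1G43770, at 0.052, and ALDH2C4 to AT5G10740, at 0.063. ALDH3F1 was closest to AT1G02060, at 0.064, and ALDH6B2 to AT1G23710, at 0.037. These likenesses describe 6 arrays that share 1 kind of control sample.

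Genes of pathways that feed or use the same aldehydes were set beside the members, from lists of 104 genes in 6 pathways, of which 17, in 5 pathways, were measured under the listed name. Branched-chain amino acid breakdown, the pathway of ALDH6B2, had 5 measured genes, and 4 fell in red light, where 19.0% of all genes did. MCCA, the biotinylated subunit of methylcrotonyl-CoA carboxylase in leucine breakdown, had log2 ratios of -1.01, -0.90 and -1.33 on the red light arrays, against 0.11, -0.22 and -0.49 on the pifQ arrays. The groups did not overlap, and MCCA averaged -1.08 ± 0.22 in red light (adjusted p = 0.000693) and -0.20 ± 0.30 in pifQ (adjusted p = 0.392).

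IVD, the isovaleryl-CoA dehydrogenase of leucine breakdown, had log2 ratios of -0.83, -0.90 and -1.27 in red light, against -0.22, -0.10 and -0.59 in pifQ. Its mean was -0.9997 ± 0.24 in red light (adjusted p = 0.000841), and the groups did not overlap. ETFALPHA and ETFBETA, the subunits of the flavoprotein that takes electrons from IVD, averaged -0.47 ± 0.12 and -0.46 ± 0.15 in red light. MCCB, the other carboxylase subunit, had -0.17 ± 0.08 (adjusted p = 0.277). None of the 5 passed in pifQ against dark Col-0 or in red light Col-0 against dark pifQ, where MCCA had a log2 difference of -0.88 (adjusted p = 0.0558) and IVD one of -0.70 (adjusted p = 0.102). Without pifQ replicate 3 both passed in that comparison, MCCA at -1.02 (adjusted p = 0.0262) and IVD at -0.84 (adjusted p = 0.0375). Without red light replicate 1, 2 of the 5 remained called in red light, IVD and MCCA. Lower calls in red light over all genes were 1371 with all arrays and 651 without that array.

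Of 2 measured polyamine genes, SAMDC, the S-adenosylmethionine decarboxylase that supplies aminopropyl groups for spermidine, rose in red light (log2 0.89 ± 0.26, adjusted p = 0.000838) and in pifQ (0.59 ± 0.06, adjusted p = 0.0201). Over all genes, 18.8% rose in red light and 4.59% in pifQ. The pifQ call of SAMDC was lost when any 1 pifQ array was left out. Of the genes called in pifQ, 332 were higher and 509 lower, but 602 higher and 550 lower with arrays scaled to the same spread. CuAO1, a copper amine oxidase that forms aminoaldehydes from polyamines, averaged 0.07 ± 0.09 in red light (adjusted p = 0.743) and -0.23 ± 0.36 in pifQ (adjusted p = 0.332). ALDH10A8 and ALDH10A9 had the opposite sign to SAMDC on every red light array, but so did every other member except ALDH11A3.

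Of 2 measured phenylpropanoid genes, HCT, the hydroxycinnamoyl transferase, fell in red light (log2 -0.64 ± 0.05, adjusted p = 0.00359) and averaged -0.22 ± 0.24 in pifQ (adjusted p = 0.255). CCR2, a cinnamoyl-CoA reductase, averaged 0.21 ± 0.07 in red light (adjusted p = 0.179) and -0.29 ± 0.20 in pifQ (adjusted p = 0.137). Around the triose phosphates on which ALDH11A3 acts, 2 of 3 measured genes rose in both groups, where 18.8% of all genes rose in red light and 4.59% in pifQ. GAPC2, a phosphorylating cytosolic glyceraldehyde-3-phosphate dehydrogenase, stood at log2 1.62 ± 0.16 in red light (adjusted p = 0.000459) and 1.502 ± 0.59 in pifQ (adjusted p = 0.00445). TPI, the triose phosphate isomerase, stood at 0.87 ± 0.04 in red light and 0.93 ± 0.34 in pifQ, and ENOC, an enolase, did not pass in either. GAPC2 has a close copy, GAPC1, and whether its feature tells them apart was not tested.

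All 5 measured genes of the list of other aldehyde-metabolising enzymes passed in red light, where 37.8% of all genes did. Of them, 3 were lower and 2 higher, beside 19.0% and 18.8% of all genes. The list is a loose one, as FDH and ACS act on the acids formate and acetate rather than on aldehydes. FDH, the mitochondrial formate dehydrogenase, had log2 ratios of -2.25, -2.23 and -1.9998 on the red light arrays, against -0.53, -0.76 and -1.28 on the pifQ arrays. All arrays were below 0 and the groups were apart: FDH averaged -2.16 ± 0.14 in red light and -0.86 ± 0.38 in pifQ (adjusted p = 0.0111). It was the 1 gene of these lists that passed in red light Col-0 against dark pifQ (log2 difference -1.30, SE 0.21, adjusted p = 0.0164), where 1.16% of all genes were lower. That call was lost without red light replicate 1 or 2 (adjusted p = 0.0864 and 0.0621) and without pifQ replicate 1 or 2 (adjusted p = 0.0597 and 0.0755).

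PDC3, a pyruvate decarboxylase that forms acetaldehyde, averaged -2.45 ± 0.38 in red light (adjusted p = 9.54e-05) and -1.18 ± 0.57 in pifQ (adjusted p = 0.0129), and it too has close copies. ACS, the acetyl-CoA synthetase that uses the acetate ALDH enzymes can form, averaged -0.60 ± 0.09 in red light and -0.40 ± 0.08 in pifQ (adjusted p = 0.0404). AOR, a chloroplast oxidoreductase of reactive alkenals, averaged 1.28 ± 0.13 in red light, where it rose, and 0.84 ± 0.88 in pifQ (adjusted p = 0.0767). Its pifQ arrays were at 1.19, 1.496 and -0.16, and without pifQ replicate 3 the AOR mean was 1.34 and passed (adjusted p = 0.00176). The red light call of AOR was lost with quantile normalization (adjusted p = 0.0530). PDC2 averaged 0.38 ± 0.14 in red light (adjusted p = 0.0237), a call lost when any 1 red light array was left out. The call of ACS in pifQ was lost when any 1 of the 6 arrays was left out. In pifQ, 3 of the 5 genes fell, where 7.04% of all genes did; without pifQ replicate 1 it was 1, FDH, and without pifQ replicate 2 it was 1, PDC3. Without pifQ replicate 3, 2 were lower, PDC3 and FDH, and 1 was higher, AOR. Lower calls in pifQ over all genes were 509 with all arrays, and 136, 178 and 352 without pifQ replicates 1, 2 and 3.

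**Figure D4:**
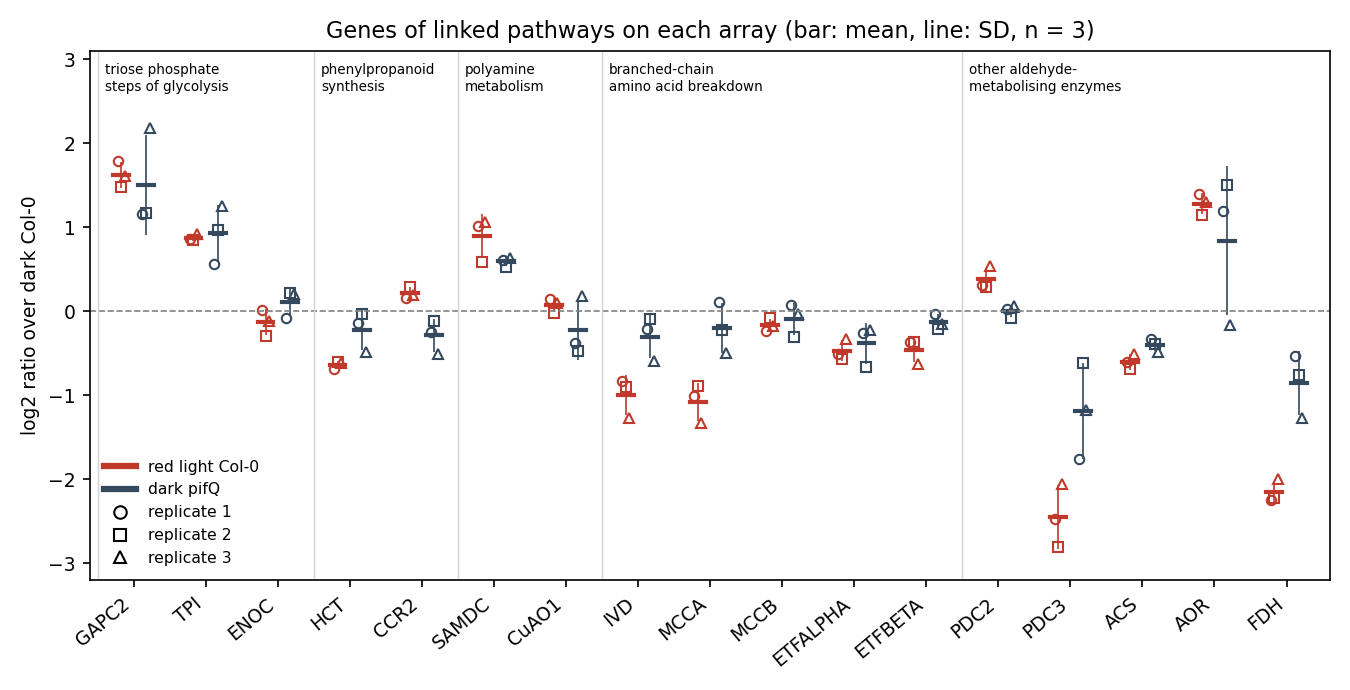
Log2 ratio over dark Col-0 (vertical axis) of the 17 measured genes of 5 pathway lists on each array, with red light Col-0 left of dark pifQ; symbols are arrays, the bar is the mean and the line the SD (n = 3). FDH and PDC3 lie lowest in red light, at -2.16 and -2.45, and GAPC2 highest, at 1.62.

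Of 13 root and guard cell markers 2 were measured. The root marker EXPA18 had a mean log2 ratio of -0.21 ± 0.41 in red light (adjusted p = 0.331) and 0.23 ± 0.13 in pifQ (adjusted p = 0.358). FAMA (FMA), a guard cell transcription factor gene, averaged 0.86 ± 0.05 in red light (adjusted p = 0.00389) and 0.19 ± 0.47 in pifQ (adjusted p = 0.474). Red light Col-0 over dark pifQ gave 0.67 for FMA (adjusted p = 0.166), and 0.94 without pifQ replicate 1, which passed (adjusted p = 0.0495). The part of changed cell makeup in the ALDH ratios was not tested.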

How the data were processed

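The authors' deposited table gives 1 log ratio for each of 45220 features on 6 arrays, read as log2 of sample over dark Col-0; titles and dyes in the labels set the direction. The submitters' processing notes name limma but no version. How background and flagged spots were handled is unknown here. The deposited column medians lay between -0.0050 and -0.00036. Without intensities, dim or saturated spots could not be identified; precision is limited by the 6 arrays.

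The platform annotation names 7440 features, for 7234 genes, and all matched the TAIR10.1 annotation. Features of a gene were averaged. Tests were two-sided and used limma 3.58.1 in R 4.3.3 (lmFit, eBayes, 1 coefficient per group, all 6 arrays); p-values were adjusted by Benjamini-Hochberg for 7234 genes. Ratios were compared with 0. It is unknown here whether the control of each array was extracted separately, so the spread of dark Col-0 may not enter the test. The fit was also run on simulated data, with independent noise and fewer changed genes than were called here in red light. How well it recovers changes as small as those of the ALDH genes is not given here. Intervals are for single genes, unadjusted.

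Members and lists were chosen with earlier results of these data known. All 7 members are named, each with the gene of smallest root mean square difference. Of each other list, genes that passed are named, up to 4 by p, or else the one with the smallest p. MCCB, PDC2, ENOC, CCR2 and CuAO1 are named to complete counts, after their values were seen. A further 6 measured list genes, whose locus the annotation does not give the listed name, are not counted. Same-numbered arrays did not deviate together (r of deviations from group means across genes -0.18, -0.15 and -0.17), so replicate numbers were not used as pairs. Some differently numbered arrays had a positive r: red light 1 with pifQ 3 (r = 0.24), red light 2 with pifQ 1 (0.18) and red light 3 with pifQ 2 (0.26). Deviations within a group sum to 0, so these positive values are not independent of the negative ones. The fit treats all 6 arrays as independent. Alternatives were 2 scalings between arrays, features without averaging, all features, leaving out the 25% of genes nearest 0, a robust prior, each group's own spread, array weights, a replicate block and leaving out each array; list counts without each array and list genes under all alternatives were added after seeing the data.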

Additional observations from a re-analysis of the deposited data

Results flagged for a closer look

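FDH, the formate dehydrogenase gene, was flagged because the difference between the groups passed its own test: red light Col-0 over dark pifQ gave a log2 difference of -1.30 (adjusted p = 0.0164), with all 3 red light arrays below all 3 pifQ arrays. The call held under 7 of 14 alternatives, with adjusted p from 0.00226 to 0.183, and the difference lay between -1.51 and -0.88 in all of them.

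CCR2, the cinnamoyl-CoA reductase gene, was flagged because all red light arrays were above 0 (0.15, 0.29 and 0.19) and all pifQ arrays below it (-0.25, -0.11 and -0.51). The log2 difference of red light Col-0 over dark pifQ was 0.50, and in limma it did not pass (adjusted p = 0.144), nor under any of 14 alternatives. No ALDH gene was flagged in either way.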

How the results depend on the processing

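ALDH genes called in red light against dark Col-0 numbered 4. Scaling arrays to the same spread gave 2, the replicate block 2, array weights 6 and the group's own spread 5. Over all 7234 genes these alternatives called 2079, 2133, 4508 and 3044 in that order, beside 2731 in the main fit. ALDH genes called numbered 0 to 5 when 1 array was left out. ALDH10A8 was called under 14 of 15 alternatives, and ALDH10A9, ALDH2C4 and ALDH3F1 under 11 of 15 each. Some alternatives could hardly change these calls. Each member has 1 feature, so its ratios were the same without averaging, and leaving out a pifQ array left the red light means unchanged. Whichever red light array was left out, ALDH10A9 (limma adjusted p 0.0541 to 0.133) and ALDH2C4 (0.0689 to 0.0911) missed the threshold. In the other comparisons no ALDH gene was called under any alternative run. With the replicate block, ALDH10A9 (adjusted p = 0.0550) and ALDH3F1 (adjusted p = 0.0549) missed the threshold; replicate numbers did not pair the arrays. Of all 7234 genes, 2731 were called in red light, 841 in pifQ and 243 in red light Col-0 against pifQ. With all 45220 features, 8431, 1846 and 525 were called, in each comparison a smaller share than of the 7234 genes. With array weights, 4508 of the 7234 genes were called in red light and 639 in red light Col-0 against pifQ. The weights were 5.60, 0.65 and 1.04 for red light replicates 1, 2 and 3, so that fit leaned mostly on red light replicate 1. For pifQ replicates 1, 2 and 3 they were 1.06, 0.51 and 0.49. The group's own spread gave 443 in pifQ; the block gave 462 in pifQ and 120 in red light Col-0 against pifQ. For the last comparison, scaling gave 93 and quantile normalization 74. Leaving out 1 array gave 1432 to 3001, 230 to 804 and 61 to 563. The cause of these shifts was not tested, except that more features were tested in the whole table.

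Calls were gained in red light Col-0 against pifQ by MCCA (adjusted p = 0.0144 with array weights, 0.0392 without genes nearest 0) and PDC3 (0.0295 and 0.0199), and in red light with array weights by CCR2, MCCB and EXPA18.

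Signs that turned were all of uncalled log2 differences. Array weights gave 0.0296 for ALDH11A3 in red light, -0.0195 for ALDH10A9 in pifQ, 0.00459 for PDC2 in pifQ and 0.0421 for TPI in red light Col-0 against pifQ. Scaling gave 0.0592 for PDC2 in pifQ and -0.28 for GAPC2 in red light Col-0 against pifQ. Quantile normalization gave 0.0226 for PDC2 in pifQ and, in red light Col-0 against pifQ, -0.66 for GAPC2, -0.0329 for SAMDC and -0.0498 for AOR. With 1 array left out, pifQ values ranged from -0.315 to 0.0575 for ALDH10A8, from -0.0182 to 0.120 for ALDH10A9, from -0.23 to 0.21 for ALDH11A3, from -0.172 to 0.0160 for MCCB, from -0.0314 to 0.0408 for PDC2 and from -0.0756 to 0.331 for FMA. Differences of red light Col-0 over pifQ then ranged from -0.32 to 0.13 for ALDH11A3, from -0.0809 to 0.104 for ALDH22A1, from -0.0550 to 0.462 for GAPC2, from -0.23 to 0.11 for TPI, from -0.0622 to 0.768 for AOR and from -0.186 to 0.00166 for MCCB. The cause was not tested. Filtering genes nearest 0 left no value for ENOC and MCCB.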
